A study of Mus musculus with 16 samples.

Results

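WTHER2-1 and WTHER2-2 are mammary tumour cell lines from mice that carry a transgene for wild-type HER2, and their expression profiles were compared directly. The arrays were chosen by the cell line label, which gave 4 arrays of WTHER2-1 and 4 of WTHER2-2, or 8 of the 16 arrays of the series. The other 8 arrays, 4 each, are of MI6 and MI7, lines from tumours of mice transgenic for d16HER2, a splice form of HER2 that lacks an exon. They entered the comparison of WTHER2-1 with WTHER2-2 only through the normalisation, the detection filter, the choice of probe and the shared estimate of spread. Levels and counts of MI6 and MI7 are also set beside some results and in some figures. All 16 arrays are Illumina mouse BeadChips hybridised with biotin-labelled cRNA made from total RNA. No treatment, culture time, passage or promoter of the transgene is given in the sources used here, and it is not stated that the 4 arrays per line stem from separate cultures, so the p-values below may measure technical spread only.

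The arrays lay on 6 BeadChips, numbered 1 to 6 here. BeadChips 1 and 2 each held arrays of both MI6 and MI7. BeadChip 3 held WTHER2-2 arrays 1 and 2, BeadChip 4 held WTHER2-2 arrays 3 and 4, BeadChip 5 held WTHER2-1 arrays 1 and 2, and BeadChip 6 held WTHER2-1 arrays 3 and 4. No BeadChip held both WT HER2 lines, so the effect of the line and that of the BeadChip cannot be told apart beyond what a random BeadChip term allows. For that reason levels or differences are given by WTHER2-2 BeadChip for most named genes, and for the rest it is stated whether the BeadChips agree. A gene is said to agree when the mean of BeadChip 3 and the mean of BeadChip 4 each lay at least 1 log2 unit from the WTHER2-1 mean, on the same side.

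HER2, encoded by Erbb2, is a receptor tyrosine kinase of the EGF receptor family that pairs with EGFR, ERBB3 or ERBB4 and signals through the MAPK and PI3K pathways. Mammary epithelium is built of luminal cells, which make milk proteins and simple keratins, and of basal or myoepithelial cells, which carry KRT14 and the transcription factor p63 and contact the basement membrane. Tumour cells that leave the epithelial state lose junction proteins and gain fibroblast-like matrix genes, a change known as epithelial-mesenchymal transition (EMT).

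Between 35.8 and 42.4% of the 45281 probes were detected on each WT HER2 array (detection p under 0.05), and the median raw intensity was 136.4 to 148.7 units on the WTHER2-1 arrays and 83.5 to 101.2 units on the WTHER2-2 arrays, without overlap before normalisation. Its part in the differences below was not tested. After filtering, 10724 genes were tested, each through its brightest probe. Values below are log2 normalised intensities unless they are called differences, and differences are WTHER2-1 minus WTHER2-2 on the log2 scale with the standard error of the fit (n = 4 arrays per line). The WTHER2-2 arrays did not form 1 tight group. Across genes, Pearson's r was 0.991 within BeadChip 3 and 0.960 within BeadChip 4, but 0.852 to 0.917 between them, whereas it was 0.958 to 0.992 among the WTHER2-1 arrays. In WTHER2-2, 2235 genes differed at least 2-fold between the means of its BeadChips, against 214 genes between the BeadChips of WTHER2-1.

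Defining markers were read on each array. Of 12 epithelial markers, 9 to 10 were detected on each WTHER2-1 array and 10 on both arrays of BeadChip 3, but 9 and 6 on the arrays of BeadChip 4. Their mean level was 9.84 to 10.24 in WTHER2-1, 10.43 and 10.39 on BeadChip 3, and 7.84 and 6.05 on BeadChip 4. Among 9 mesenchymal markers, 1 to 3 were detected on each WTHER2-1 array and 6 to 7 on each WTHER2-2 array; Lum and Dpt, 2 stromal proteoglycan and matrix genes, were detected on none. Their mean level was 5.32 to 5.86 in WTHER2-1, 7.23 and 7.35 on BeadChip 3, and 9.88 and 8.99 on BeadChip 4. Not all members followed the mean. Thy1 read 11.12 and 11.08 on BeadChip 3 but 7.81 and 4.76 on BeadChip 4. Pdgfra read 10.84, 10.68, 8.68 and 10.77 on the WTHER2-1 arrays, 9.08 and 9.53 on BeadChip 3 and 13.05 and 12.78 on BeadChip 4. The epithelial mean was thus high in WTHER2-1 and on BeadChip 3 and lower on BeadChip 4. Of 6 basal markers, 3 were detected on each array except WTHER2-2 array 4, with 1. Of 7 leukocyte markers on the array, Csf1r and Cd14 were detected on all 8 arrays and Ptprc, Adgre1, Tyrobp, Fcer1g and Cd3e on none, and of 5 endothelial markers only Kdr was detected. The part of these markers in the differences below was not tested.

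Genes were called at an adjusted p under 0.05 (limma, Benjamini-Hochberg over all genes) and an absolute difference of at least 1. In all, 1480 genes were called, 13.8% of those tested, of which 750 (6.99%) were higher and 730 (6.81%) lower in WTHER2-1. The 2 BeadChips of WTHER2-2 agreed on 941 of them, 8.77% of genes tested and 63.6% of the called, with 491 (4.58%) higher and 450 (4.2%) lower in WTHER2-1. A further 178 called genes passed the 1-unit mark on BeadChip 3 alone and 361 on BeadChip 4 alone. No called gene lay on opposite sides. The fit makes such a call unlikely, since opposite differences cancel in the line mean and widen the spread. WTHER2-1 array 3 lay apart from the other 3 arrays of its line in 14 of the 100 named genes, and WTHER2-2 array 4 had the lowest share of detected probes. Without the former, 1383 genes were called and 924 agreed, and without the latter 1570 and 1024. In the same fit 180 genes (1.68%) were called between MI6 and MI7. Those lines shared BeadChips 1 and 2, so their contrast lay within BeadChips, whereas that of the WT HER2 lines lay between BeadChips. The 2 counts are therefore not a like measure of how far the lines differ. The arrays of the lines did not overlap for 3303 genes (30.8%). At the agreement mark, Nhlrc1, Bhlhb9 and Pmm1 lay just inside, each with a smaller BeadChip difference of 1.00, and Dpm1, Nkap and Proser3 lay just outside, also at 1.00 after rounding.

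Set against each WTHER2-2 BeadChip in a fit with 1 coefficient per line and BeadChip, WTHER2-1 differed in 1770 genes (16.5%) from BeadChip 3 and in 2598 genes (24.2%) from BeadChip 4. Both comparisons share the WTHER2-1 arrays. This fit had no random BeadChip term, so its error was only the spread between arrays of the same line and BeadChip. Its counts and adjusted p-values therefore hold no spread between BeadChips and are not a like measure to those of the main fit. A group of 158 genes lay at least 1 unit above 1 WTHER2-2 BeadChip and at least 1 unit below the other. None of them was called between the lines, which the fit itself makes likely for such genes and is no separate result. Sema5a, a semaphorin guidance protein, read 10.76, 10.92, 10.38 and 10.84 on the 4 WTHER2-1 arrays, 7.49 and 7.11 on BeadChip 3 and 13.89 and 13.86 on BeadChip 4. Tnc, the matrix protein tenascin C, read 7.64, 8.02, 8.28 and 8.14 on the 4 WTHER2-1 arrays, 11.09 and 10.97 on BeadChip 3 and 5.74 and 4.86 on BeadChip 4. WTHER2-1 lay between the BeadChips of WTHER2-2 for both genes, which were named after their values were seen, and the BeadChips of WTHER2-2 did not agree.

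**Figure D1:**
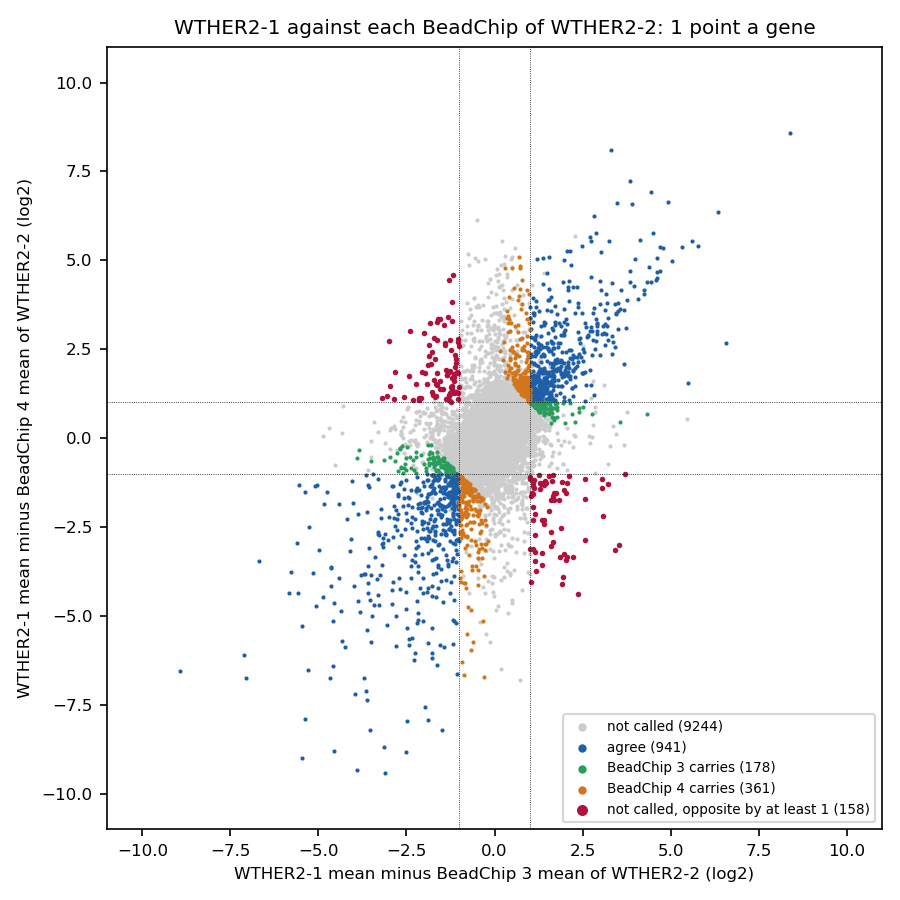
Each point is 1 of 10724 genes, with the WTHER2-1 mean minus the BeadChip 3 mean of WTHER2-2 on the x axis and minus the BeadChip 4 mean on the y axis (both log2 differences); dotted lines mark 1 unit. The 941 agreed genes fill the upper right and lower left corners, 178 and 361 called genes pass the mark on BeadChip 3 or BeadChip 4 only, and 158 uncalled genes lie in the opposite corners.

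The largest difference on which both BeadChips agreed was in Ly6d, a GPI-anchored surface antigen of the Ly6 family. It read 14.60, 14.54, 13.48 and 14.44 on the 4 WTHER2-1 arrays, 6.002 and 5.72 on BeadChip 3 and 6.59 and 4.77 on BeadChip 4. WTHER2-1 was higher on every array, by 8.49 ± 0.41 (adjusted p = 1.28e-09), and the difference was nearly the same against either BeadChip. Nudt11, a diphosphoinositol polyphosphate phosphohydrolase, read 10.39, 10.52, 10.52 and 10.42 on the 4 WTHER2-1 arrays, 4.83 and 4.88 on BeadChip 3 and 4.87 and 4.96 on BeadChip 4. It was not above background on any WTHER2-2 array, which makes WTHER2-1 at least 27.4-fold higher (adjusted p = 3.64e-12). Such bounds set the bright line's mean against, per array, the higher of the background level and the dim probe's own signal. Nudt11 was detected on no MI6 or MI7 array either, so it passed the detection filter through WTHER2-1 alone. The same held for Igf2, Lgals7, Bmp7 and Bcl11b below, and for Pdpn, Rnase4, Arhgap24, Tcea3 and Pdgfrb through WTHER2-2. The filter thus selected these genes through the line where they are high, and their absence elsewhere is not separate support.

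Growth factors were among the genes higher in WTHER2-1. Igf2, the imprinted insulin-like growth factor, read 11.68, 10.43, 9.54 and 11.62 on the 4 WTHER2-1 arrays, 4.95 and 5.12 on BeadChip 3 and 5.26 and 5.56 on BeadChip 4, and was at least 35.1-fold higher in WTHER2-1. Pgf, placental growth factor, read 13.00, 12.60, 12.05 and 12.70 on the 4 WTHER2-1 arrays, 9.31 and 6.96 on BeadChip 3 and 5.73 and 5.61 on BeadChip 4, a difference of 5.68 ± 0.65 (adjusted p = 1.92e-05). Them5, an acyl-CoA thioesterase of mitochondria, read 11.62, 10.45, 11.39 and 11.27 on the 4 WTHER2-1 arrays, 4.84 and 4.85 on BeadChip 3 and 4.87 and 4.81 on BeadChip 4, at least 45.2-fold higher. No array of the other line reached the WTHER2-1 range in any of these 3 genes, and both BeadChips agreed on each. Chil1, a secreted chitinase-like protein, differed by 5.06 ± 0.58 (adjusted p = 2.01e-05, 4.77 against BeadChip 3 and 5.34 against BeadChip 4), and Gsta3, a glutathione transferase, by 5.36 ± 0.33 (adjusted p = 3.14e-08, 5.33 against BeadChip 3 and 5.39 against BeadChip 4), with agreement of both BeadChips.

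The proliferins Prl2c2 and Prl2c4, placental relatives of prolactin, were the exception to clean separation. Prl2c4 read 14.01, 14.74, 7.32 and 13.61 on the 4 WTHER2-1 arrays, 7.19 and 7.83 on BeadChip 3 and 5.39 and 6.18 on BeadChip 4, and Prl2c2 read 13.48, 12.65, 7.54 and 14.51 on the 4 WTHER2-1 arrays, 7.21 and 7.89 on BeadChip 3 and 5.82 and 6.72 on BeadChip 4. WTHER2-1 array 3 lay far below the other 3 arrays of its line and within the WTHER2-2 range for both. The differences were 5.78 ± 1.37 (adjusted p = 0.00704) for Prl2c4 and 5.13 ± 1.33 (adjusted p = 0.0119) for Prl2c2, and the BeadChips agreed on both, but the calls were lost without BeadChip 5 or with the 8 WT HER2 arrays alone. Proliferin genes are near copies of each other, so their probes may share transcripts.

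In the other direction, Cldn10, a claudin of tight junctions, read 4.82, 4.79, 4.96 and 4.81 on the 4 WTHER2-1 arrays, 13.76 and 13.78 on BeadChip 3 and 13.29 and 9.50 on BeadChip 4. It was not above background on any WTHER2-1 array and was at least 131-fold higher in WTHER2-2, with array 4 of that line well below the other 3. Armcx2, an armadillo-repeat protein, read 5.08, 5.37, 5.08 and 5.40 on the 4 WTHER2-1 arrays, 12.11 and 12.57 on BeadChip 3 and 11.80 and 10.86 on BeadChip 4, at least 78-fold higher in WTHER2-2. Arhgap24, a GTPase-activating protein for Rac, was at least 43.6-fold and Tcea3, a transcription elongation factor, at least 36.6-fold higher in WTHER2-2. The BeadChips agreed on all of these, and the level on BeadChip 4 was above that on BeadChip 3 for Arhgap24 and Tcea3.

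Several of the genes highest in WTHER2-2 agreed in direction while their level differed strongly between its BeadChips. Pdpn, the membrane glycoprotein podoplanin, read 4.87, 4.79, 4.98 and 5.09 on the 4 WTHER2-1 arrays, 8.57 and 9.09 on BeadChip 3 and 14.21 and 14.31 on BeadChip 4, at least 63.8-fold higher in WTHER2-2. Cavin3, a coat protein of caveolae, read 4.85, 4.70, 4.88 and 4.67 on the 4 WTHER2-1 arrays, 7.76 and 8.05 on BeadChip 3 and 13.36 and 13.57 on BeadChip 4, at least 35.1-fold higher. Plac8 read 6.07, 6.45, 5.50 and 6.21 on the 4 WTHER2-1 arrays, 9.48 and 9.71 on BeadChip 3 and 14.55 and 14.02 on BeadChip 4, a difference of -5.88 ± 1.06 (adjusted p = 0.00104). Measured against WTHER2-1, where Pdpn and Cavin3 were not above background, the difference was -3.90 against BeadChip 3 and -9.33 against BeadChip 4 for Pdpn, -3.13 against BeadChip 3 and -8.69 against BeadChip 4 for Cavin3, and -3.53 against BeadChip 3 and -8.22 against BeadChip 4 for Plac8.

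Serpinf1, a secreted serpin also known as PEDF, differed (difference -7.24 ± 0.70, adjusted p = 3.73e-06, -5.48 against BeadChip 3 and -9.01 against BeadChip 4). Rnase4, a secreted ribonuclease, was not above background on any WTHER2-1 array and was at least 42.5-fold higher in the WTHER2-2 mean (adjusted p = 0.00123). It read 7.34 and 8.27 on BeadChip 3 and 13.87 and 14.35 on BeadChip 4, so that bound does not hold for BeadChip 3 alone. The call of Rnase4 was lost when the arrays of each BeadChip were averaged before the fit. The BeadChips agreed on both genes. Other probes disagreed on the size: a further probe of Serpinf1 gave a difference of -0.79 and one of Rnase4 gave -0.24. Dimmer probes of other genes gave the same direction at a smaller size, with 3.12 for Them5, 2.57 for Ltf, 2.91 for Kit, -2.44 for Arhgap24, -3.39 for Tcea3, -4.10 for Cavin3, -4.93 and -5.75 for Cldn10, and -3.12 and -4.11 for Ogn. Sizes and bounds for all these genes hold for the brightest probe only.

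**Figure D2:**
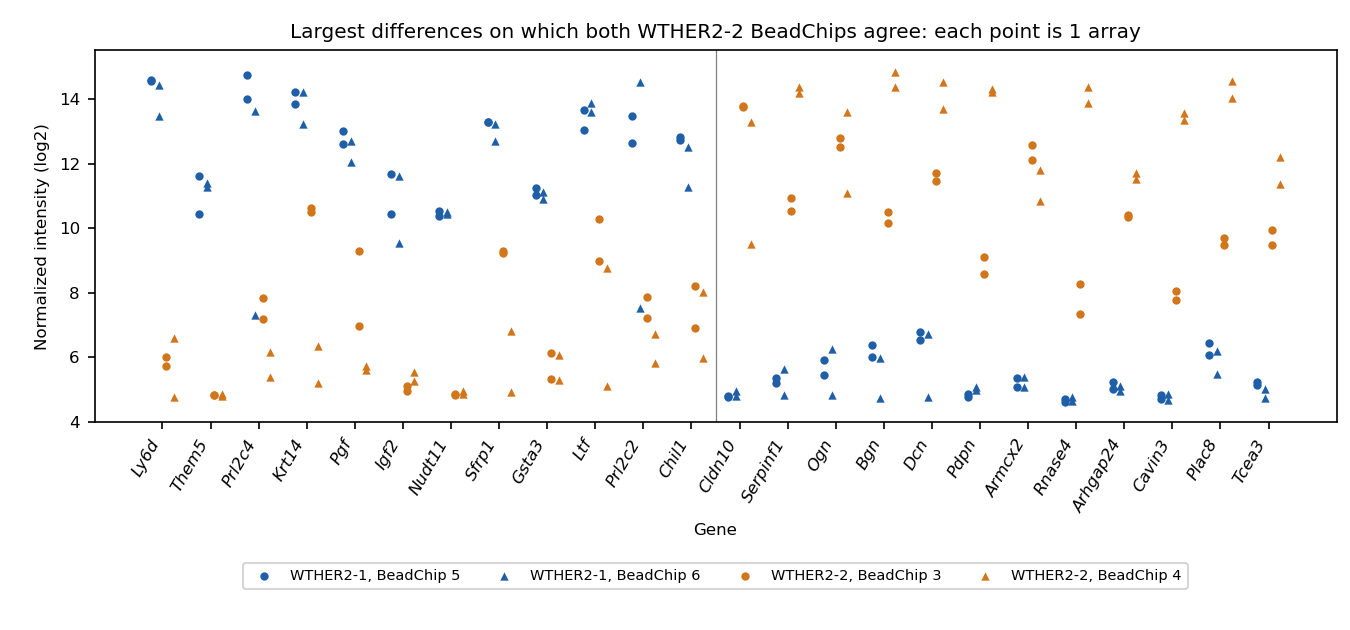
Log2 normalised intensity of the 12 genes with the largest agreed difference in each direction, 1 point per array, with WTHER2-1 in blue and WTHER2-2 in orange and circles or triangles for the first or second BeadChip of a line. The lines are separate for every gene except Prl2c4 and Prl2c2, where WTHER2-1 array 3 falls at 7.32 and 7.54.

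The ERBB receptors differed less than the genes above. Erbb2 read 10.01, 9.78, 10.29 and 9.85 on the 4 WTHER2-1 arrays, 9.43 and 9.33 on BeadChip 3 and 7.90 and 7.48 on BeadChip 4. It was called higher in WTHER2-1 by 1.45 ± 0.36 (adjusted p = 0.00913), but the difference was 0.60 against BeadChip 3 and 2.30 against BeadChip 4, so BeadChip 4 carried the call and the BeadChips did not agree. The probe is annotated to mouse Erbb2, and whether it also reads the transgene was not tested. With BeadChip 4 left out, the Erbb2 contrast is by definition that against BeadChip 3 (0.60), which is no separate check. Erbb3 was not above background on any WTHER2-2 array and was at least 1.33-fold higher in WTHER2-1 (adjusted p = 0.0294), with differences of 0.98 against BeadChip 3 and 1.10 against BeadChip 4, so the BeadChips just failed to agree, and its call was lost in 12 of 23 alternative settings, background correction and scaling among them. Egfr read 9.83, 9.87, 9.63 and 10.14 on the 4 WTHER2-1 arrays, 11.32 and 11.56 on BeadChip 3 and 10.53 and 9.71 on BeadChip 4 and was not called (-0.91 ± 0.34 (adjusted p = 0.0625)), with differences of -1.57 against BeadChip 3 and -0.25 against BeadChip 4. Erbb4 was too dim to be tested.

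Of 18 listed ERBB receptors and ligands, 12 were tested, and 4 were called higher and 1 lower in WTHER2-1 (41.7% called, beside 13.8% of all genes). The BeadChips agreed on 3 (25%, beside 8.77%). The ligand Hbegf read 11.61, 11.38, 11.58 and 12.02 on the 4 WTHER2-1 arrays, 10.13 and 9.49 on BeadChip 3 and 8.75 and 8.05 on BeadChip 4, higher in WTHER2-1 by 2.55 ± 0.36 (adjusted p = 0.000164); a second probe gave 0.93. Epgn, the ligand epigen, was higher by 2.28 ± 0.49 (adjusted p = 0.00386, 1.39 against BeadChip 3 and 3.17 against BeadChip 4). Nrg1, the neuregulin ligand of ERBB3 and ERBB4, read 6.29, 6.86, 6.30 and 6.64 on the 4 WTHER2-1 arrays, 7.81 and 8.04 on BeadChip 3 and 7.73 and 8.11 on BeadChip 4. The difference was -1.40 against each BeadChip (adjusted p = 0.00293). The arrays of the lines were separate for these 3 agreed ligands.

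Of 27 listed genes of MAPK feedback and the AP-1 family, 22 were tested, 9 were called higher in WTHER2-1 (40.9%, beside 6.99% of all genes) and 0 lower, and the BeadChips agreed on 5 (22.7%, beside 4.58%). Dusp5, a phosphatase that inactivates ERK in the nucleus, read 12.49, 12.36, 11.66 and 12.77 on the 4 WTHER2-1 arrays, 9.56 and 9.02 on BeadChip 3 and 8.81 and 7.51 on BeadChip 4. Egr2, an immediate-early transcription factor, read 12.59, 12.17, 11.91 and 12.54 on the 4 WTHER2-1 arrays, 9.95 and 8.58 on BeadChip 3 and 9.85 and 8.89 on BeadChip 4. Fosb, an AP-1 subunit, read 12.59, 11.49, 13.02 and 12.56 on the 4 WTHER2-1 arrays, 10.21 and 10.02 on BeadChip 3 and 10.05 and 10.85 on BeadChip 4. All 4 WTHER2-1 arrays lay above all WTHER2-2 arrays for the 3 genes, with differences of 3.59 ± 0.48 (adjusted p = 9.51e-05), 2.99 ± 0.35 (adjusted p = 2.26e-05) and 2.13 ± 0.49 (adjusted p = 0.0055). Atf3 (difference 1.96) and Etv5 (difference 1.72), an ETS factor of the FGF and MAPK response, were the other agreed members. Dusp6, Junb and Ier3 were carried by BeadChip 4 and Jun by BeadChip 3. The list's median difference was 0.69, beside 0.02 for all genes tested.

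Of 18 listed basal and myoepithelial genes, 11 were tested, 6 were called higher in WTHER2-1 and 0 lower, and the BeadChips agreed on all 6 (54.5%, beside 4.58% of all genes). Against BeadChip 4 alone, 2 of the 11 lay at least 1 unit lower in WTHER2-1 and 8 at least 1 unit higher. Krt14, the basal keratin, read 13.85, 14.20, 13.21 and 14.22 on the 4 WTHER2-1 arrays, 10.49 and 10.62 on BeadChip 3 and 6.35 and 5.20 on BeadChip 4. The lines were separate, and the difference of 5.71 ± 0.92 (adjusted p = 0.000447) was made of 3.32 against BeadChip 3 and 8.09 against BeadChip 4. Lgals7, galectin 7 of stratified epithelia, was not above background in WTHER2-2 and was at least 9.2-fold higher in WTHER2-1, with 2 dimmer probes at 0.71 and 1.98. Trp63, which encodes p63, differed by 2.62 ± 0.49 (adjusted p = 0.00137, 2.42 against BeadChip 3 and 2.81 against BeadChip 4). The smooth muscle kinase Mylk (1.39) and the laminin receptor subunit Itga6 (1.32) had smaller agreed differences. Acta2 was not called (-0.62), and the listed genes Krt5, Myh11 and Cnn1 did not pass the detection filter.

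Lamb3, a laminin chain of the epithelial basement membrane, read 13.67, 13.46, 13.57 and 13.63 on the 4 WTHER2-1 arrays, 12.48 and 12.27 on BeadChip 3 and 10.16 and 6.91 on BeadChip 4. It differed by 3.13 ± 0.94 (adjusted p = 0.0256), mostly through BeadChip 4, since the differences were 1.21 against BeadChip 3 and 5.05 against BeadChip 4; both passed 1 unit, so the BeadChips agreed by the rule, but the BeadChip 3 difference did not pass the test of its own (adjusted p = 0.181).

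Of 14 listed keratins, 9 were tested and 5 were called higher in WTHER2-1 (55.6%, beside 13.8% of all genes called). Of these Krt14, Krt15, Krt16 and Krt17 agreed on both BeadChips (44.4%, beside 8.77%). Krt15 read 9.25, 8.62, 7.71 and 8.74 on the 4 WTHER2-1 arrays, 5.66 and 5.72 on BeadChip 3 and 5.76 and 5.96 on BeadChip 4. Krt16 read 8.39, 9.76, 6.83 and 9.36 on the 4 WTHER2-1 arrays, 5.34 and 5.86 on BeadChip 3 and 4.72 and 4.92 on BeadChip 4. Krt17 was not above background on any WTHER2-2 array and was at least 5.52-fold higher. The 4 agreed genes are neighbours among the measured genes of 1 chromosome and encode similar type I keratins, and whether their probes cross-hybridise was not tested. The simple keratins Krt8 and Krt18 were not called. Krt8 read 14.51, 14.43, 14.70 and 14.55 on the 4 WTHER2-1 arrays, 14.46 and 14.36 on BeadChip 3 and 11.28 and 8.56 on BeadChip 4, and its difference was 0.14 against BeadChip 3 and 4.63 against BeadChip 4.

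Luminal and milk genes split. Of 29 listed, 22 were tested, and 7 were called higher and 2 lower in WTHER2-1 (40.9% called, beside 13.8% of all genes). The BeadChips agreed on 6 and 2 (36.4%, beside 8.77%). Kit, a receptor tyrosine kinase of luminal progenitors, read 12.02, 11.48, 11.83 and 11.69 on the 4 WTHER2-1 arrays, 8.18 and 8.40 on BeadChip 3 and 5.60 and 4.68 on BeadChip 4, higher by 5.04 ± 0.65 (adjusted p = 6.19e-05). Ltf, the milk and mucosal iron-binding protein lactoferrin, read 13.65, 13.03, 13.87 and 13.60 on the 4 WTHER2-1 arrays, 10.28 and 8.999 on BeadChip 3 and 8.78 and 5.10 on BeadChip 4, higher by 5.25 ± 0.86 (adjusted p = 0.000501). Csn1s1, a casein, was higher by 4.63 ± 1.08 (adjusted p = 0.0061, 6.58 against BeadChip 3 and 2.68 against BeadChip 4), and Elf5, the transcription factor of alveolar differentiation, by 4.13 ± 0.82 (adjusted p = 0.00213, 3.03 against BeadChip 3 and 5.22 against BeadChip 4). All 4 agreed on both BeadChips, as did Tfap2c (3.49) and Cited1, which was not above background in WTHER2-2 and at least 2.64-fold higher.

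The 2 luminal-list genes lower in WTHER2-1 were transcription factors. Tfap2b, an AP-2 factor, read 5.10, 4.86, 5.12 and 4.90 on the 4 WTHER2-1 arrays, 10.61 and 10.94 on BeadChip 3 and 10.77 and 6.78 on BeadChip 4. It was not above background in WTHER2-1 and at least 18.7-fold higher in WTHER2-2, while 4 other probes of the gene gave differences from -0.75 to -3.69. Esr1, the oestrogen receptor, was lower in WTHER2-1 (difference -1.80 ± 0.31, adjusted p = 0.000695, -2.20 against BeadChip 3 and -1.41 against BeadChip 4). Both agreed on both BeadChips, and no array of WTHER2-1 reached the WTHER2-2 range for Tfap2b.

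Genes of the Wnt and Notch pathways formed the longest agreed group in the WTHER2-1 direction among the 31 lists. Of 39 listed, 27 were tested, 10 were called higher and 1 lower, and the BeadChips agreed on all 10 of the higher, 37.0% of those tested beside 4.58% of all genes. Sfrp1, a secreted Wnt antagonist, read 13.29, 13.27, 12.69 and 13.24 on the 4 WTHER2-1 arrays, 9.23 and 9.31 on BeadChip 3 and 6.83 and 4.94 on BeadChip 4, higher by 5.55 ± 0.72 (adjusted p = 6.95e-05). Wnt7a, a Wnt ligand, read 8.38, 10.26, 7.91 and 9.11 on the 4 WTHER2-1 arrays, 4.67 and 4.69 on BeadChip 3 and 4.86 and 4.62 on BeadChip 4. It was not above background in WTHER2-2 and at least 9.38-fold higher in WTHER2-1. A second Wnt ligand, Wnt4, and the transcription factor Lef1 were also not above background in WTHER2-2 and at least 2.39-fold and 1.7-fold higher. They were agreed, as were the receptor Fzd7 (1.39) and the co-receptor Lrp5 (1.16).

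On the Notch side, Nrarp, a target gene and feedback inhibitor of Notch, read 12.87, 11.65, 11.76 and 12.80 on the 4 WTHER2-1 arrays, 9.81 and 9.32 on BeadChip 3 and 7.64 and 5.58 on BeadChip 4, higher in WTHER2-1 by 4.19 ± 0.74 (adjusted p = 0.000912). The ligand Dll1 was higher by 3.03 ± 0.59 (adjusted p = 0.00179, 2.36 against BeadChip 3 and 3.70 against BeadChip 4), the target transcription factor Hes1 by 2.91 ± 0.45 (adjusted p = 0.000322, 2.58 against BeadChip 3 and 3.24 against BeadChip 4) and the receptor Notch3 by 2.52 ± 0.37 (adjusted p = 0.000226, 1.99 against BeadChip 3 and 3.05 against BeadChip 4), all agreed. Notch4 was the 1 member called lower (-1.04), carried by BeadChip 3. The median difference of the list was 0.82, with 0.81 against BeadChip 3 and 1.21 against BeadChip 4. The list counts of agreed genes ranged from 7 to 11 over the alternative settings.

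In the TGF-beta and BMP pathway, 23 of 29 listed genes were tested, and 3 were called higher and 6 lower in WTHER2-1 (39.1%, beside 13.8% of all genes). The BeadChips agreed on 2 and 3 (21.7%, beside 8.77%). Bmp7, a BMP ligand, was not above background in WTHER2-2 and at least 6.77-fold higher in WTHER2-1, while Bmp4, a ligand of the same family, read 7.17, 8.86, 6.51 and 8.70 on the 4 WTHER2-1 arrays, 12.01 and 11.98 on BeadChip 3 and 11.004 and 9.16 on BeadChip 4 and was lower (difference -3.23 ± 0.75, adjusted p = 0.00611). Tgfb1, the ligand TGF-beta 1, read 6.21, 6.80, 5.76 and 6.84 on the 4 WTHER2-1 arrays, 9.08 and 9.04 on BeadChip 3 and 9.16 and 9.12 on BeadChip 4. It was lower in WTHER2-1 (difference -2.70 ± 0.35, adjusted p = 6.95e-05), nearly alike against both BeadChips. Tgfb2 was lower (-2.38) and the target Id1 higher (2.21), both agreed. Without WTHER2-2 array 4, 8 members of the list agreed instead of 5.

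**Figure D3:**
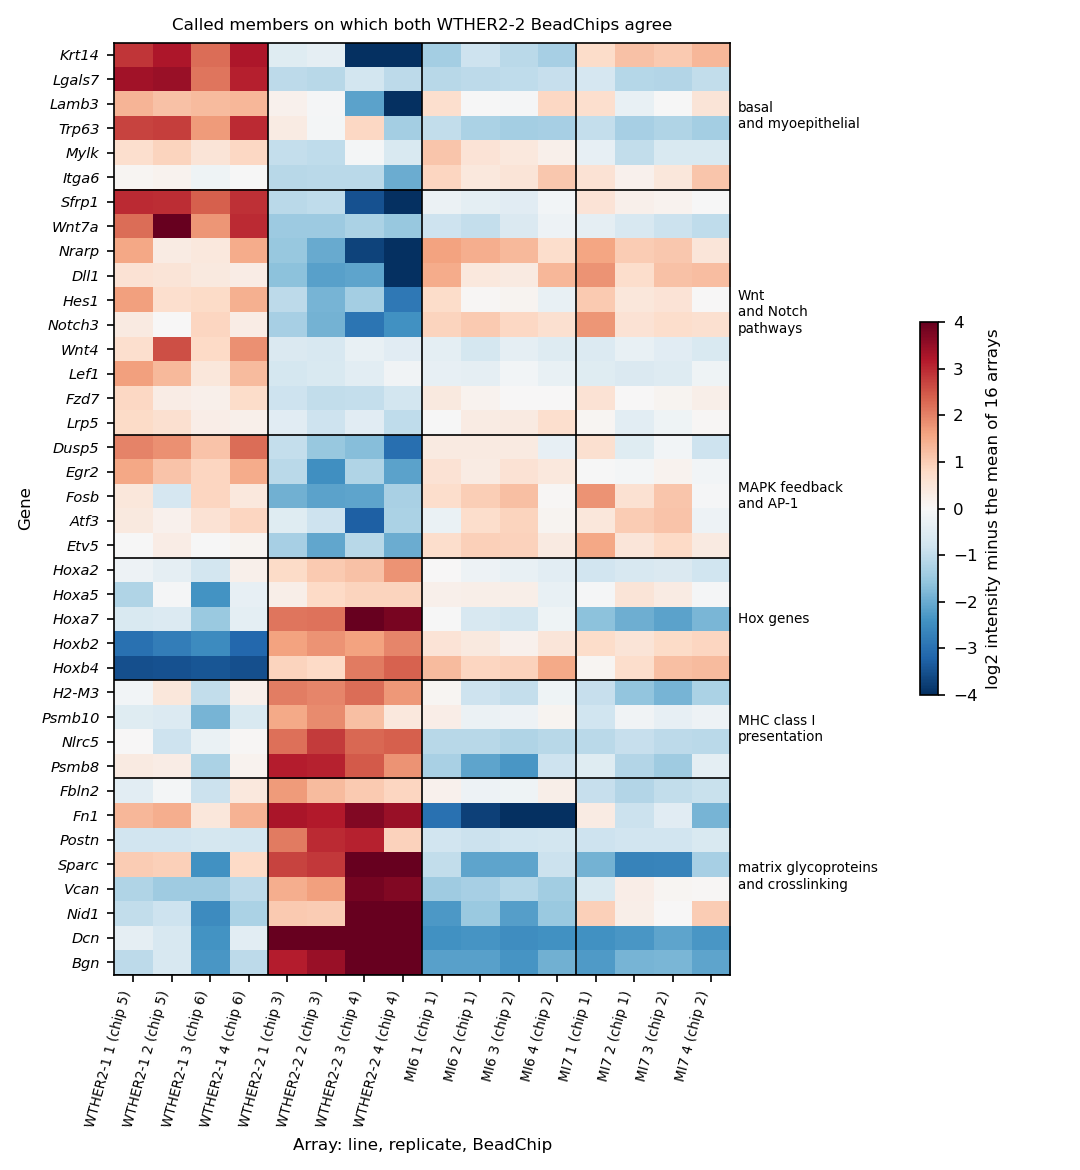
Log2 intensity minus the mean of all 16 arrays for the agreed members of 6 lists (rows), by array (columns, grouped by line, with the BeadChip in brackets); colours are capped at 4 units either way. Basal, Wnt, Notch and MAPK members are high in WTHER2-1, and Hox, MHC class I and matrix members are high on all 4 WTHER2-2 arrays.

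Junction and identity genes of epithelium were the group on which the WTHER2-2 BeadChips parted most. Of 40 listed, 30 were tested, and 5 were called higher in WTHER2-1 and 0 lower (16.7%, near the 13.8% of all genes). The BeadChips agreed on 2, Grhl1 and Jup (6.67%, below the 8.77% of all genes). The list's median difference was 1.64, but it was -0.10 against BeadChip 3 and 3.26 against BeadChip 4. Against BeadChip 4, 26 of the 30 genes were at least 1 unit higher in WTHER2-1, against 2 for BeadChip 3. Cdh1, E-cadherin, read 11.63, 11.62, 11.71 and 11.41 on the 4 WTHER2-1 arrays, 12.04 and 12.08 on BeadChip 3 and 9.36 and 7.44 on BeadChip 4, and it was not called (1.36 ± 0.75 (adjusted p = 0.207)).

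Grhl1, a grainyhead transcription factor, read 10.48, 9.89, 10.78 and 10.34 on the 4 WTHER2-1 arrays, 8.55 and 8.13 on BeadChip 3 and 7.97 and 6.10 on BeadChip 4, higher in WTHER2-1 by 2.69 ± 0.47 (adjusted p = 0.000774). Jup, the junction protein plakoglobin, was higher by 1.63 ± 0.36 (adjusted p = 0.00471, 1.22 against BeadChip 3 and 2.03 against BeadChip 4). Both agreed on both BeadChips. The splicing regulator Esrp2 read 10.31, 10.33, 11.36 and 10.23 on the 4 WTHER2-1 arrays, 10.01 and 9.71 on BeadChip 3 and 6.16 and 4.76 on BeadChip 4, and Grhl2, the second grainyhead factor, read 11.08, 11.001, 10.95 and 11.07 on the 4 WTHER2-1 arrays, 10.24 and 10.36 on BeadChip 3 and 7.40 and 4.94 on BeadChip 4. These 2 genes were high in WTHER2-1 and on BeadChip 3, and low only on BeadChip 4.

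Esrp2 (2.90 ± 0.88 (adjusted p = 0.0266)) and Grhl2 (2.79 ± 0.87 (adjusted p = 0.0308)) were therefore called without agreement of the BeadChips. The remaining genes with the largest such differences in the WTHER2-1 direction were Cwh43 (2.75), the kinase Tnk1 (2.63) and Sh3d21 (2.61). Cwh43 is a membrane protein of GPI-anchor remodelling in yeast. BeadChip 4 carried these calls. Each was lost without BeadChip 4, which follows from the 1-unit mark, since only the smaller BeadChip 3 difference then remains. Their arrays were separate between the lines for Tnk1 and Sh3d21 but overlapped for Cwh43.

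Mesenchymal transcription factors ran the other way. Of 19 listed, 13 were tested, and 8 were called lower and 1 higher in WTHER2-1 (69.2%, beside 13.8% of all genes). The BeadChips agreed on 4 lower and 1 higher (38.5%, beside 8.77%). Prrx1, a homeobox factor of mesenchyme, read 5.72, 6.16, 6.04 and 6.11 on the 4 WTHER2-1 arrays, 8.31 and 8.74 on BeadChip 3 and 10.56 and 10.12 on BeadChip 4, lower in WTHER2-1 (difference -3.42 ± 0.39, adjusted p = 2.08e-05). Tcf4, a basic helix-loop-helix factor, read 10.72, 10.71, 10.14 and 10.87 on the 4 WTHER2-1 arrays, 12.11 and 12.31 on BeadChip 3 and 13.81 and 13.44 on BeadChip 4, lower (difference -2.31 ± 0.31, adjusted p = 0.000106). Both were lowest on the WTHER2-1 arrays, intermediate on BeadChip 3 and highest on BeadChip 4. Twist2 was lower (difference -2.56 ± 0.66, adjusted p = 0.0118, -1.71 against BeadChip 3 and -3.40 against BeadChip 4) and Foxc1 (difference -1.39 ± 0.22, adjusted p = 0.000399, -1.59 against BeadChip 3 and -1.18 against BeadChip 4), both agreed, and Msx1 was higher (1.90). Zeb1, Zeb2, Snai2 and Foxc2 were called lower through BeadChip 4 only.

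Of 29 listed matrix glycoproteins and crosslinking enzymes, 18 were tested, 9 were called lower and 0 higher in WTHER2-1, and the BeadChips agreed on 8, 44.4% of those tested beside 4.2% of all genes. The proteoglycan Bgn read 6.01, 6.40, 4.73 and 5.995 on the 4 WTHER2-1 arrays, 10.17 and 10.51 on BeadChip 3 and 14.83 and 14.37 on BeadChip 4, a difference of -6.69 ± 0.84 (adjusted p = 5.13e-05). Its relative Dcn, decorin, read 6.79, 6.53, 4.79 and 6.73 on the 4 WTHER2-1 arrays, 11.47 and 11.72 on BeadChip 3 and 14.52 and 13.69 on BeadChip 4, a difference of -6.64 ± 0.63 (adjusted p = 3.42e-06). Ogn, a further small leucine-rich proteoglycan, read 5.45, 5.91, 4.83 and 6.25 on the 4 WTHER2-1 arrays, 12.51 and 12.80 on BeadChip 3 and 13.61 and 11.10 on BeadChip 4 (-6.89 ± 0.78 (adjusted p = 1.81e-05)). The lines were separate on all arrays for the 3 genes, and the BeadChips agreed on each.

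Nid1, nidogen of the basement membrane, was lower in WTHER2-1 (difference -4.13 ± 0.75, adjusted p = 0.00105, -2.44 against BeadChip 3 and -5.82 against BeadChip 4), Fn1, fibronectin, (difference -2.23 ± 0.46, adjusted p = 0.00275, -2.05 against BeadChip 3 and -2.42 against BeadChip 4), Sparc (difference -3.47 ± 0.83, adjusted p = 0.00711, -2.69 against BeadChip 3 and -4.26 against BeadChip 4) and Fbln2, fibulin, (difference -1.45 ± 0.30, adjusted p = 0.00311, -1.72 against BeadChip 3 and -1.17 against BeadChip 4). The proteoglycan Vcan and the adhesion protein Postn were not above background on any WTHER2-1 array and at least 9.25-fold and 4.48-fold higher in WTHER2-2. All 6 agreed on both BeadChips. Tgfbi read 8.35, 8.63, 5.44 and 8.33 on the 4 WTHER2-1 arrays, 8.32 and 8.93 on BeadChip 3 and 13.79 and 14.19 on BeadChip 4 and was called (-3.62 ± 1.15 (adjusted p = 0.0325)) through BeadChip 4 alone, with overlapping arrays. Without WTHER2-1 array 3, 7 members of the list agreed instead of 8.

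Of 18 listed collagens, 12 were tested, and 0 were called higher and 3 lower in WTHER2-1 (25%, beside 13.8% of all genes). The BeadChips agreed on 2 (16.7%, beside 8.77%). The list turned direction between the BeadChips. Against BeadChip 3, 6 collagens lay at least 1 unit higher in WTHER2-1 and 3 lower (median difference 0.46), and against BeadChip 4, 0 lay higher and 7 lower (median -1.21). Col1a1, a chain of fibrillar collagen I, read 5.62, 5.39, 5.56 and 5.44 on the 4 WTHER2-1 arrays, 7.26 and 7.04 on BeadChip 3 and 12.25 and 11.50 on BeadChip 4, and agreed (-4.01 ± 0.88 (adjusted p = 0.00438)); Col16a1 agreed at the margin (-1.003 against BeadChip 3 and -2.35 against BeadChip 4). Col1a2, the partner chain of Col1a1, read 5.20, 5.26, 5.34 and 5.70 on the 4 WTHER2-1 arrays, 5.80 and 6.16 on BeadChip 3 and 11.39 and 10.82 on BeadChip 4. It was called (-3.17 ± 0.96 (adjusted p = 0.0258)) but carried by BeadChip 4. Without background correction, or in the authors' normalised values, no collagen was both called and agreed.

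Of 19 listed fibroblast and stromal markers, 11 were tested, and 7 were called lower and 0 higher in WTHER2-1 (63.6%, beside 13.8% of all genes). The BeadChips agreed on 5 (45.5%, beside 8.77%). Pdgfra was not called (-0.87), and Thy1 did not pass the detection filter. Pdgfrb, the PDGF receptor of fibroblasts and pericytes, read 4.66, 4.69, 4.62 and 4.69 on the 4 WTHER2-1 arrays, 6.01 and 6.26 on BeadChip 3 and 9.57 and 8.97 on BeadChip 4. It was not above background in WTHER2-1 and at least 4.45-fold higher in WTHER2-2. The mean level of the 11 genes was 6.98, 7.09, 5.94 and 7.10 on the WTHER2-1 arrays, 7.70 and 7.85 on BeadChip 3 and 10.60 and 10.08 on BeadChip 4. In RNA of a whole culture, a larger share of cells of 1 kind and more RNA per cell cannot be told apart. The count of agreed members fell to 2 with the 8 WT HER2 arrays alone.

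Genes called in the WTHER2-2 direction without agreement were led by Tgfbi and Col1a2 and by Scara3, a scavenger receptor, Gstp2, a glutathione transferase, and Cela1, an elastase. Scara3 read 4.58, 4.68, 4.59 and 4.57 on the 4 WTHER2-1 arrays, 4.89 and 4.93 on BeadChip 3 and 11.43 and 11.22 on BeadChip 4, and was detected on BeadChip 4 only. The measured differences of Gstp2 were -0.68 against BeadChip 3 and -5.96 against BeadChip 4, and those of Cela1 were -0.80 against BeadChip 3 and -5.50 against BeadChip 4, with neither gene above background in WTHER2-1. BeadChip 4 carried all 5, and each lost its call in 5 to 13 of the 23 alternative settings.

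Among proteases and their inhibitors, 19 of 31 listed genes were tested, and 6 were called lower and 1 higher in WTHER2-1 (36.8%, beside 13.8% of all genes). The BeadChips agreed on 4 and 1 (26.3%, beside 8.77%). Mmp14, a membrane-anchored metalloprotease, read 9.72, 11.08, 4.81 and 10.58 on the 4 WTHER2-1 arrays, 13.56 and 13.72 on BeadChip 3 and 14.51 and 13.89 on BeadChip 4, lower (difference -4.87 ± 1.18, adjusted p = 0.00774). WTHER2-1 array 3 lay at 4.81, below the other arrays of its line. The collagenase Mmp13 (-2.32) and the inhibitor Timp3 (-3.60) were lower too, and the kallikrein Klk10 was higher by 4.12 ± 0.54 (adjusted p = 7.87e-05, 3.96 against BeadChip 3 and 4.27 against BeadChip 4), all agreed.

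**Figure D4:**
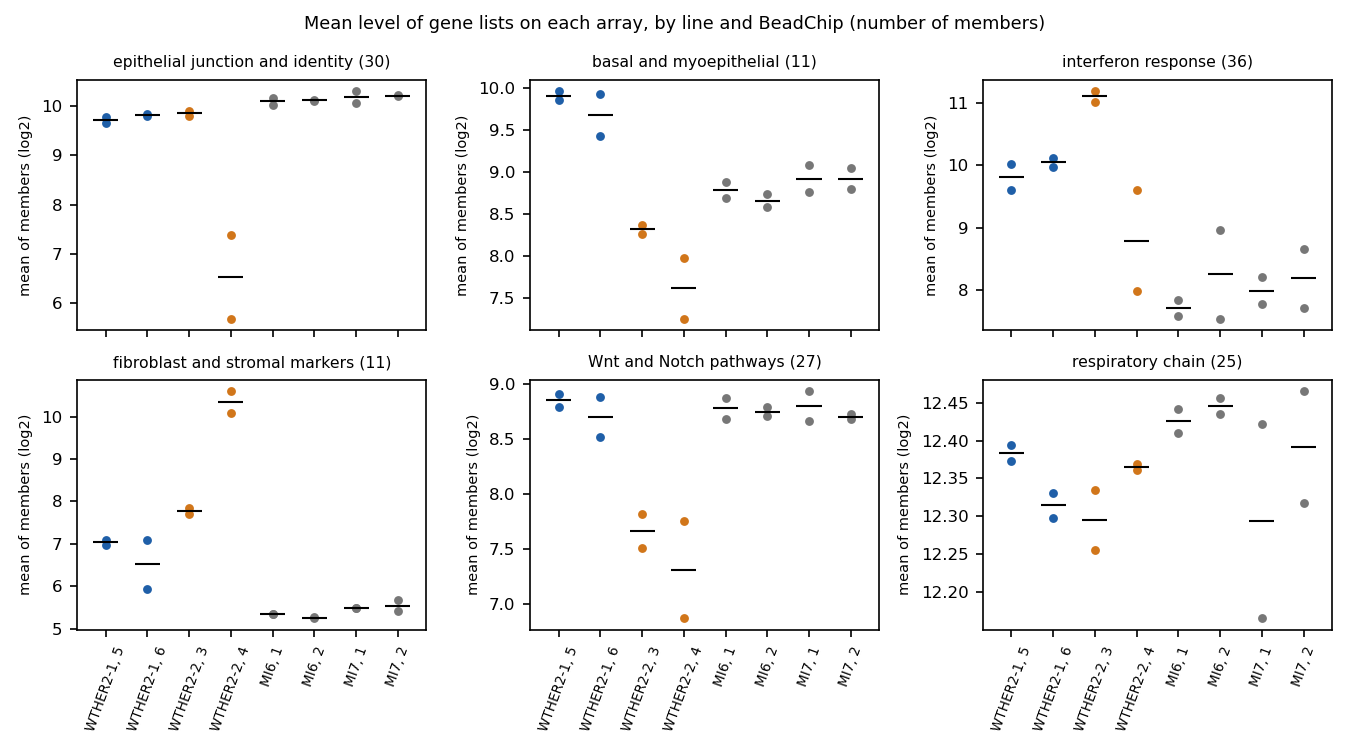
Mean log2 level of the tested members of 6 lists on each array (points) with the mean of each line and BeadChip (bars); numbers in the panel titles are members. Epithelial genes are low only on BeadChip 4, basal, Wnt and Notch genes are low on both WTHER2-2 BeadChips, stromal genes are highest on BeadChip 4, interferon genes are highest on BeadChip 3, and respiratory chain genes lie between 12.17 and 12.47 on all 16 arrays.

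Interferon response genes gave no call between the lines. Of 40 listed, 36 were tested, and limma called 0, with 5 at an unadjusted p under 0.05, beside 3902 of all 10724 genes. The median difference was 0.09, made of -1.07 against BeadChip 3 and 1.24 against BeadChip 4. Against BeadChip 3, 18 of the 36 genes were at least 1 unit lower in WTHER2-1 and 0 higher, and against BeadChip 4, 20 were at least 1 unit higher and 0 lower, with 10 genes in both groups. Ifit3, an interferon-induced antiviral protein, read 11.75, 10.68, 8.87 and 11.54 on the 4 WTHER2-1 arrays, 14.16 and 14.25 on BeadChip 3 and 12.68 and 9.80 on BeadChip 4, not called (-2.01 ± 1.14 (adjusted p = 0.22)). Rsad2, the antiviral enzyme viperin, read 9.91, 8.80, 10.11 and 9.83 on the 4 WTHER2-1 arrays, 11.90 and 12.29 on BeadChip 3 and 9.08 and 6.75 on BeadChip 4, with differences of -2.43 against BeadChip 3 and 1.75 against BeadChip 4. Without WTHER2-2 array 4, 3 members were called and agreed.

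In MHC class I antigen presentation, 4 genes were lower in WTHER2-1 on both BeadChips. Of 21 listed, 19 were tested, and 9 were called lower and 0 higher (47.4%, beside 13.8% of all genes). The 4 agreed genes made 21.1%, beside 8.77%. The 5 called genes without agreement, H2-K1, H2-T23, Tapbpl, Psmb9 and Psme1, were carried by BeadChip 3. Psmb8, an inducible subunit of the immunoproteasome, read 11.10, 11.04, 9.48 and 10.88 on the 4 WTHER2-1 arrays, 13.87 and 13.83 on BeadChip 3 and 13.20 and 12.55 on BeadChip 4, lower (difference -2.74 ± 0.53, adjusted p = 0.00171). Nlrc5, the transactivator of MHC class I genes, read 5.76, 4.94, 5.51 and 5.81 on the 4 WTHER2-1 arrays, 7.96 and 8.57 on BeadChip 3 and 8.04 and 8.15 on BeadChip 4, lower (difference -2.68 ± 0.24, adjusted p = 1.57e-06). Psmb10, a second immunoproteasome subunit, read 9.84, 9.78, 8.46 and 9.74 on the 4 WTHER2-1 arrays, 11.86 and 12.21 on BeadChip 3 and 11.54 and 10.76 on BeadChip 4, lower (difference -2.14 ± 0.39, adjusted p = 0.00116). H2-M3, a class Ib molecule, was lower (difference -2.10 ± 0.41, adjusted p = 0.00176), with differences of -2.10 against BeadChip 3 and -2.09 against BeadChip 4. All 4 WTHER2-1 arrays lay below all WTHER2-2 arrays for these genes, and WTHER2-1 array 3 was the lowest of its line for Psmb8 and Psmb10.

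Of 34 listed chemokines and cytokines, 24 were tested, and 2 were called higher and 2 lower (16.7%, near the 13.8% of all genes). The BeadChips agreed on 1 in each direction (8.33%, near the 8.77% of all genes). Il33, an alarmin of epithelium and stroma, read 6.37, 6.75, 7.35 and 6.52 on the 4 WTHER2-1 arrays, 10.29 and 10.39 on BeadChip 3 and 12.63 and 9.58 on BeadChip 4, lower in WTHER2-1 (difference -3.97 ± 0.65, adjusted p = 0.000481). The neutrophil chemokine Cxcl1 was higher by 1.82 ± 0.41 (adjusted p = 0.00498, 1.05 against BeadChip 3 and 2.60 against BeadChip 4). Lif and Vegfa were carried by BeadChip 4. Of 20 acute phase and complement genes, 12 were tested and 3 were called and agreed (25%, beside 8.77% of all genes). Orm1, an acute phase glycoprotein, was not above background in WTHER2-2 and at least 18.3-fold higher in WTHER2-1, and its near copy Orm2 was higher by 2.18 ± 0.35 (adjusted p = 0.000432, 2.52 against BeadChip 3 and 1.84 against BeadChip 4). Ptx3, a long pentraxin, read 7.70, 7.33, 5.01 and 7.29 on the 4 WTHER2-1 arrays, 10.69 and 11.01 on BeadChip 3 and 10.38 and 6.94 on BeadChip 4, lower (difference -2.92 ± 0.89, adjusted p = 0.0271) with overlapping arrays. Its BeadChip 4 difference of -1.82 did not pass in the fit per line and BeadChip (adjusted p = 0.0703). The call of Ptx3 was lost in 6 of 23 alternative settings.

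Markers of other cell types were few. Of those tested, 33.3% of leukocyte and 50% of endothelial markers were called, beside 13.8% of all genes. Of 21 leukocyte markers 3 were tested, and Cd14, a receptor for lipopolysaccharide also made by epithelium, was higher in WTHER2-1 (3.17 ± 0.51 (adjusted p = 0.000431, 2.09 against BeadChip 3 and 4.25 against BeadChip 4)). Of 13 endothelial markers 6 were tested, and Plvap (2.55 ± 0.22 (adjusted p = 1.49e-06, 2.78 against BeadChip 3 and 2.33 against BeadChip 4)) and Egfl7 (1.12 ± 0.35 (adjusted p = 0.0312, 1.04 against BeadChip 3 and 1.21 against BeadChip 4)) were higher, agreed on both BeadChips, although the call of Egfl7 was lost in 10 of 23 alternative settings, and Eng was lower through BeadChip 4 (-2.12). Pecam1, Cdh5 and Tie1, which define endothelium, were detected on none of the 8 arrays. Of 9 adipocyte markers 3 were tested and 0 were called by limma, with 0 at an unadjusted p under 0.05. Plin4, a lipid droplet protein, had the largest difference (-1.70 ± 0.80 (adjusted p = 0.138)) and read 5.58, 5.62, 5.22 and 5.84 on the 4 WTHER2-1 arrays, 4.93 and 5.32 on BeadChip 3 and 9.19 and 9.65 on BeadChip 4, so the BeadChips did not agree.

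Of 32 listed Hox genes, 12 were tested, 5 were called lower in WTHER2-1 and 0 higher, and the BeadChips agreed on all 5 (41.7%, beside 4.2% of all genes). Hoxb4 read 4.64, 4.66, 4.71 and 4.63 on the 4 WTHER2-1 arrays, 9.05 and 8.95 on BeadChip 3 and 10.23 and 10.51 on BeadChip 4. Hoxb2 read 4.95, 5.18, 5.43 and 4.80 on the 4 WTHER2-1 arrays, 9.57 and 9.75 on BeadChip 3 and 9.55 and 9.90 on BeadChip 4. Neither was above background on any WTHER2-1 array, and WTHER2-2 was at least 17.6-fold higher for Hoxb4 and at least 17.7-fold higher for Hoxb2. Hoxa7 read 6.68, 6.73, 5.81 and 6.91 on the 4 WTHER2-1 arrays, 9.42 and 9.46 on BeadChip 3 and 11.28 and 11.10 on BeadChip 4, lower (difference -3.78 ± 0.44, adjusted p = 2.23e-05), and Hoxa5 (-1.70) and Hoxa2 (-1.47) had smaller agreed differences. In MI6 and MI7, Hoxb4 averaged 9.29 and 8.96 and Hoxb2 8.35 and 8.67, whereas Hoxa7 averaged 6.90 and 5.41, Hoxa5 10.37 and 10.47 and Hoxa2 5.52 and 5.03.

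Of 20 listed imprinted and placental growth genes, 10 were tested, and 5 were called higher in WTHER2-1 and 1 lower. All 6 agreed (60%, beside 8.77% of all genes). The list's mean was 8.99, 9.24, 7.67 and 9.41 on the WTHER2-1 arrays and 7.16 and 7.41 on BeadChip 3 and 7.45 and 7.86 on BeadChip 4, so WTHER2-1 array 3 lay within the WTHER2-2 range. Beside Igf2, Prl2c2 and Plac8, described above, these were Prl2c3 (4.85), Phlda2, an imprinted placental growth regulator (1.68), and Peg3, an imprinted zinc finger gene, with differences of 1.34 against BeadChip 3 and 1.35 against BeadChip 4.

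A second run of neighbouring measured genes besides the keratins was called and agreed in 1 direction. Kank2, Dock6, Rab3d and Tmem205 were all lower in WTHER2-1. Dock6, an exchange factor for Rac and Cdc42, read 7.78, 7.30, 6.83 and 7.93 on the 4 WTHER2-1 arrays, 10.71 and 10.80 on BeadChip 3 and 10.22 and 9.97 on BeadChip 4, lower (difference -2.97 ± 0.36, adjusted p = 3.84e-05). Tmem205, a membrane protein, was lower (difference -2.07 ± 0.41, adjusted p = 0.00211, -2.05 against BeadChip 3 and -2.10 against BeadChip 4), Kank2, a regulator of actin and adhesions, (difference -1.58 ± 0.28, adjusted p = 0.000982, -1.15 against BeadChip 3 and -2.02 against BeadChip 4), and Rab3d, a GTPase of secretory vesicles, (difference -1.56 ± 0.38, adjusted p = 0.00852, -1.43 against BeadChip 3 and -1.69 against BeadChip 4). The arrays of the lines were separate for the 4 genes.

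Receptor tyrosine kinases outside the ERBB family were mixed, with 19 of 27 listed tested and 2 called higher and 3 lower (26.3%, beside 13.8% of all genes). The BeadChips agreed on Kit, Pdgfrb and Axl (15.8%, beside 8.77%). Axl, the GAS6 receptor, read 12.13, 12.31, 11.03 and 12.21 on the 4 WTHER2-1 arrays, 14.005 and 13.96 on BeadChip 3 and 14.04 and 13.68 on BeadChip 4, lower in WTHER2-1 (difference -2.00 ± 0.38, adjusted p = 0.00139). Met and Epha2 were called with BeadChip 4 alone past 1 unit. Of 25 mammary progenitor genes, 16 were tested and 2 were called higher (12.5%, near the 13.8% of all genes). Of these Bcl11b, a zinc finger factor, agreed (6.25%, below the 8.77% of all genes). Bcl11b was not above background in WTHER2-2 and at least 1.79-fold higher (adjusted p = 1.12e-06).

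Cell cycle genes gave 1 call among 27 tested of 33 listed (3.7%, below the 13.8% of all genes). Tk1, the S-phase thymidine kinase, read 11.93, 12.18, 12.65 and 11.57 on the 4 WTHER2-1 arrays, 10.03 and 10.19 on BeadChip 3 and 9.22 and 7.70 on BeadChip 4, higher in WTHER2-1 by 2.79 ± 0.70 (adjusted p = 0.00977), and agreed. The mean level of the list was 9.24, 9.68, 10.73 and 9.23 in WTHER2-1, 9.38 and 9.26 on BeadChip 3 and 9.01 and 8.60 on BeadChip 4, so WTHER2-1 array 3 stood highest. Without the BeadChip term, 4 members agreed, and 0 without BeadChip 5 or 6. Of 26 D cyclins, CDK inhibitors and p53 targets, 23 were tested, and Ccnd1 alone was called (1.30), through BeadChip 4 (4.35%, below the 13.8% of all genes). Mtap had the largest difference of that list (1.33 ± 0.82 (adjusted p = 0.257)) and was not called; it read 9.77, 10.30, 9.65 and 10.09 on the 4 WTHER2-1 arrays, 10.10 and 10.06 on BeadChip 3 and 8.85 and 5.47 on BeadChip 4.

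In hypoxia and glycolysis, 27 of 35 listed genes were tested, and 3 were called higher and 1 lower in WTHER2-1, all agreed. The share called was 14.8%, near the 13.8% of all genes. Eno2, the neuronal enolase, read 8.65, 8.30, 6.79 and 8.97 on the 4 WTHER2-1 arrays, 10.9999 and 11.14 on BeadChip 3 and 11.97 and 12.49 on BeadChip 4, lower (difference -3.47 ± 0.52, adjusted p = 0.000237). Egln1, a prolyl hydroxylase of HIF, was higher by 1.67 ± 0.46 (adjusted p = 0.017, 1.88 against BeadChip 3 and 1.47 against BeadChip 4), Pgk1, a glycolytic kinase, by 1.29 ± 0.20 (adjusted p = 0.000372, 1.36 against BeadChip 3 and 1.22 against BeadChip 4) and Car12, a carbonic anhydrase, by 1.63 ± 0.53 (adjusted p = 0.0356, 1.32 against BeadChip 3 and 1.95 against BeadChip 4). Car12 was the 1 of these with overlapping arrays, and its call was lost in 11 of 23 alternative settings, without BeadChip 4 among them. Of 28 cholesterol and fatty acid genes, 21 were tested, and 3 were called higher and 3 lower (28.6%, beside 13.8% of all genes). The BeadChips agreed on 3 and 2 (23.8%, beside 8.77%).

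Scd1, the stearoyl-CoA desaturase, read 15.41, 14.92, 15.33 and 15.19 on the 4 WTHER2-1 arrays, 13.69 and 13.61 on BeadChip 3 and 13.47 and 13.77 on BeadChip 4. It was higher in WTHER2-1 by 1.58 ± 0.15 (adjusted p = 4e-06), the closest match of the BeadChips in the group (1.56 against BeadChip 3 and 1.59 against BeadChip 4). Dhcr7, of cholesterol synthesis, was higher by 1.54 ± 0.30 (adjusted p = 0.002, 1.40 against BeadChip 3 and 1.69 against BeadChip 4) and Srebf1, the lipid synthesis regulator, by 1.51 ± 0.37 (adjusted p = 0.00894, 1.39 against BeadChip 3 and 1.62 against BeadChip 4), whereas Idi1 (-1.04) and Insig1 (-1.25) were lower, all agreed. Of 27 glutathione and antioxidant genes tested, 3 were called higher and 2 lower (18.5%, beside 13.8% of all genes). The BeadChips agreed on 2 and 2 (14.8%, beside 8.77%). Nqo1, a quinone reductase, read 5.78, 5.63, 5.51 and 5.43 on the 4 WTHER2-1 arrays, 7.94 and 7.77 on BeadChip 3 and 10.77 and 12.48 on BeadChip 4, lower (difference -4.15 ± 0.80, adjusted p = 0.00175), and Gstm1 was lower (difference -3.55 ± 0.72, adjusted p = 0.00234, -2.18 against BeadChip 3 and -4.93 against BeadChip 4), though a second, dimmer Gstm1 probe gave -0.40.

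Some lists held no called gene. Of 29 respiratory chain genes, 25 were tested and limma called 0, with 7 at an unadjusted p under 0.05, beside 3902 of all 10724 genes. Sdhb, a subunit of complex II, had the largest difference (-0.71 ± 0.24 (adjusted p = 0.0469)). Of 10 sex-linked genes, 6 were tested and 0 called, with 2 at an unadjusted p under 0.05; Eif2s3x, an X-linked translation factor, had the largest difference (0.75 ± 0.18 (adjusted p = 0.00683)). The arrays of the lines were separate for Sdhb and Eif2s3x, and both missed a call only through the mark of 1 unit. Neither gene reached 1 unit against both BeadChips, with -0.34 against BeadChip 3 and -1.08 against BeadChip 4 for Sdhb and 0.60 against BeadChip 3 and 0.90 against BeadChip 4 for Eif2s3x.

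**Figure D5:**
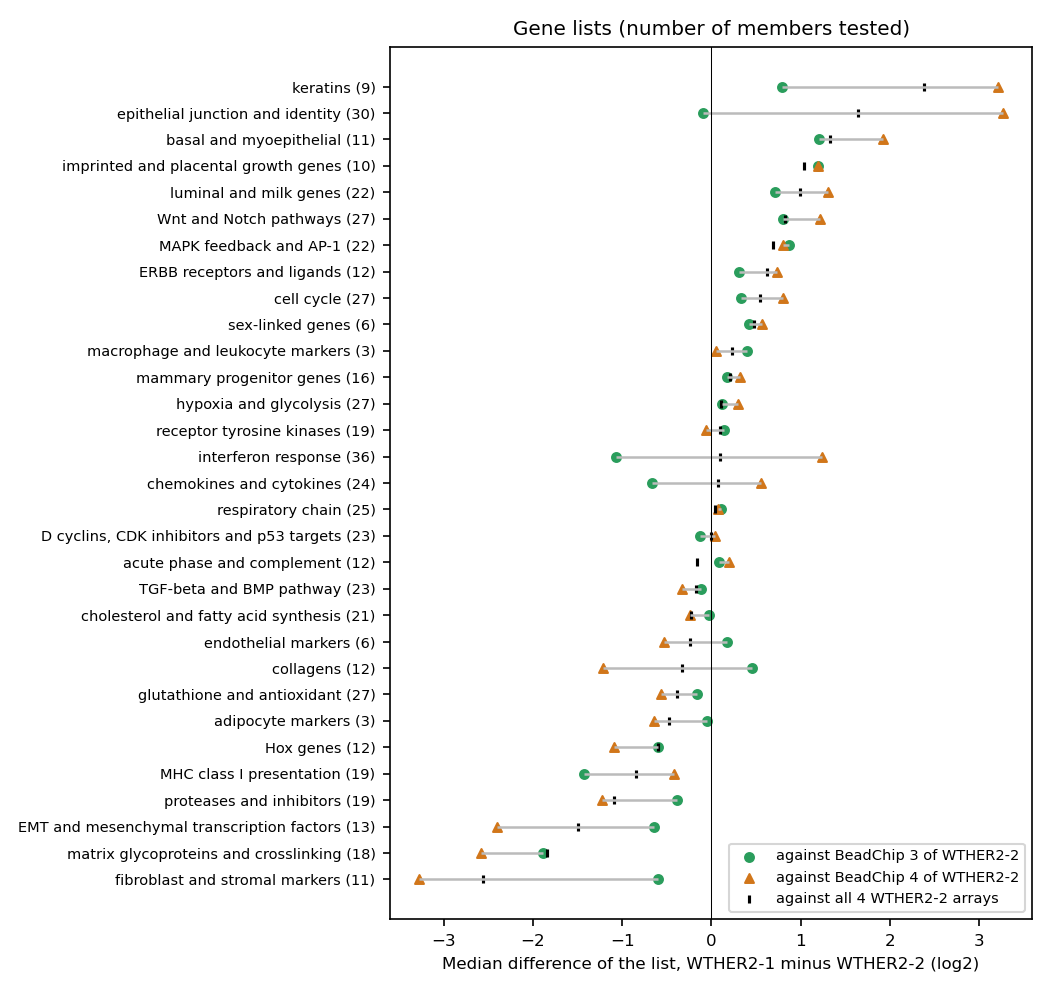
Median log2 difference of the tested members of each of the 31 lists (number in brackets), WTHER2-1 minus WTHER2-2, against BeadChip 3 (green circles), BeadChip 4 (orange triangles) and all 4 WTHER2-2 arrays (black bars). The medians lie on opposite sides of 0 for the interferon list (-1.07 and 1.24) and on the same side for the Wnt and Notch list (0.81 and 1.21).

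Levels in the d16HER2 lines were set beside the agreed genes. Of the 491 genes higher in WTHER2-1, the mean of MI6 and MI7 lay nearer WTHER2-1 for 263 and nearer WTHER2-2 for 228, and 65 were undetected in both MI6 and MI7. Of the 450 lower genes, it lay nearer WTHER2-1 for 289 and nearer WTHER2-2 for 161, with 64 undetected in both. Ly6d, Igf2, Nudt11 and both proliferins were undetected in MI6 and MI7, as were Bgn, Dcn, Pdpn, Rnase4, Arhgap24 and Tcea3, whereas Cldn10 averaged 13.24 and 13.37, close to the 3 higher WTHER2-2 arrays. Ltf and Chil1 averaged 14.71 and 14.67 in MI6, above every WT HER2 array.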

How the data were processed

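Total RNA of 16 arrays was measured on Illumina mouse BeadChips. The authors read the scans with BeadStudio, per the submitters' processing notes (no version given), and deposited the average signal intensity per probe, which per the file headers is not normalised. Each array's detection p-value, deposited beside it, gives the probe's rank among negative control beads. The authors' deposited value table also holds intensity; its arrays share 1 distribution (medians 108.36 to 108.52, linear scale, not centred), how it was made is not given in the sources used here, and it was used as an alternative.

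Intensities were background-corrected by normexp with controls inferred from the detection p (offset 16), quantile-normalised and taken to log2 with limma 3.58.1 and statmod 1.5.0 in R 4.3.3. Probes needed a detection p under 0.05 on at least 4 of 16 arrays, which left 20152 of 45281 probes. Of all probes, 34885 had 1 gene symbol, 18 several and 10378 none in the platform annotation, and 34807 symbols matched the reference gene table. The brightest passing probe stood for a gene. The fit had 1 coefficient per line, an intensity trend and BeadChip as a random block (consensus correlation 0.31). It was also run on simulated data, in which the BeadChip spread was a fixed share of each gene's array spread. That setting does not cover the unequal spread of WTHER2-2 and WTHER2-1 between their BeadChips, so no conclusion is drawn from it. Groups came from the cell line labels, and array numbers within a line follow accession order. No depth in reads exists for arrays, and the number of arrays limits the precision.

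Gene lists and comparison were chosen with earlier results of these data known. Named genes were Erbb2, Egfr, Erbb3 and Erbb4, the 12 largest agreed differences in each direction, the 3 largest agreed members of each list (or the 1 largest difference where none agreed), the 5 largest called differences without agreement in each direction, and neighbouring runs of at least 4 agreed genes. Symbols that only number a predicted gene were left out. Other genes were named after their values were seen. Alternatives changed the BeadChip term, arrays, background correction, scaling, detection filter and probe rule.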

Additional observations from a re-analysis of the deposited data

Results flagged for a closer look

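Single arrays that lay far from the other 3 of their line were looked for by Dixon's test among the 100 named genes and the 31 list means, and chance alone flags about 1 in 20 groups. WTHER2-1 array 3 stood apart in 14 named genes and 9 list means, more often than any other array. Its log2 levels were 13.48 for Ly6d (14.44 to 14.60 on the other 3 arrays), 7.32 for Prl2c4 (13.61 to 14.74 on the other 3 arrays), 12.69 for Sfrp1 (13.24 to 13.29 on the other 3 arrays), 11.36 for Esrp2 (10.23 to 10.33 on the other 3 arrays) and 4.79 for Dcn (6.53 to 6.79 on the other 3 arrays). They were further 5.44 for Tgfbi (8.33 to 8.63 on the other 3 arrays), 4.87 for Twist2 (7.29 to 7.72 on the other 3 arrays), 9.48 for Psmb8 (10.88 to 11.10 on the other 3 arrays), 8.46 for Psmb10 (9.74 to 9.84 on the other 3 arrays) and 5.01 for Ptx3 (7.29 to 7.70 on the other 3 arrays). For the remaining genes they were 11.03 for Axl (12.13 to 12.31 on the other 3 arrays), 5.58 for Gstm1 (7.61 to 7.83 on the other 3 arrays), 7.84 for Rab3d (9.15 to 9.23 on the other 3 arrays) and 8.14 for Tmem205 (9.76 to 9.92 on the other 3 arrays).

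The list means in which WTHER2-1 array 3 stood apart were 7.41 for EMT and mesenchymal transcription factors (8.04 to 8.05 on the other 3 arrays), 8.79 for collagens (9.76 to 9.95 on the other 3 arrays), 7.22 for matrix glycoproteins and crosslinking (8.29 to 8.45 on the other 3 arrays), 5.94 for fibroblast and stromal markers (6.98 to 7.10 on the other 3 arrays) and 8.18 for acute phase and complement (8.90 to 9.03 on the other 3 arrays). The others were 8.90 for receptor tyrosine kinases (9.10 to 9.13 on the other 3 arrays), 10.09 for hypoxia and glycolysis (10.90 to 10.95 on the other 3 arrays), 10.27 for cholesterol and fatty acid synthesis (10.17 to 10.18 on the other 3 arrays) and 8.69 for glutathione and antioxidant (9.44 to 9.53 on the other 3 arrays). The mean was above the other 3 arrays for the cholesterol and fatty acid list and below them for the other 8 lists.

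On WTHER2-1 array 2, the value apart was Scara3 at 4.68 (4.57 to 4.59 on the other arrays). On WTHER2-1 array 4, the value apart was Kank2 at 6.36 (6.86 to 6.93 on the other arrays). On WTHER2-2 array 1, values apart were Orm1 at 5.13 (5.41 to 5.44 on the other arrays) and Srebf1 at 8.63 (8.09 to 8.16 on the other arrays). On WTHER2-2 array 2, the value apart was the list mean of MAPK feedback and AP-1 at 10.13 (10.39 to 10.44 on the other arrays). On WTHER2-2 array 3, the value apart was Orm2 at 6.49 (5.06 to 5.11 on the other arrays). On WTHER2-2 array 4, values apart were Cldn10 at 9.50 (13.29 to 13.78 on the other arrays), Tfap2b at 6.78 (10.61 to 10.94 on the other arrays), Ptx3 at 6.94 (10.38 to 11.01 on the other arrays) and the list mean of receptor tyrosine kinases at 8.60 (9.09 to 9.15 on the other arrays).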

How the results depend on the processing

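Over the settings tried, 94 of the 100 named genes were called in the main fit and 59 of them kept their call in all 23 alternatives. The count of called genes, 1480 in the main fit, was 816 with only the 8 WT HER2 arrays, 2649 without BeadChip 3 and 879 without BeadChip 6, and leaving out 1 array in turn gave 1268 to 1796. The count of agreed genes, 941, was 592 without background correction, 592 in the authors' normalised values (the cause was not tested), and 1480 when agreement needed the same sign only; leaving out 1 array gave 883 to 1033. Other alternatives stayed within 1.5 times the main counts. Estimated array weights, which gave WTHER2-2 arrays 3 and 4 the lowest weights (0.170 and 0.094), called 1918 genes, of which 1129 were shared with the main fit. Without the BeadChip term 1702 genes were called and 986 agreed, and with BeadChip means 1142 and 889. The sign turned for Plin4 with array weights (0.27) and without BeadChip 4 (0.44), and for Mtap without BeadChip 4 (-0.13), neither of them called in the main fit; the cause was not tested. The 10 genes named for the largest called differences without agreement lost their call without BeadChip 4, as did Erbb2, Erbb3 and Car12. For all but Car12 this follows from the mark of 1 unit, since only the BeadChip 3 difference, which was smaller, then remains. No paired analysis was possible because the labels carry no replicate numbers. Dim probes, which are not above background in a line, give only a lower bound of the fold.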
